A study of Mus musculus with 4 samples.

Results

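The potassium channel genes of the mouse cerebellum were taken as every gene symbol made of Kcn, lower-case letters and a closing number. Of 55341 genes with deposited counts, 92 symbols matched, and 69 of them reached 1 CPM or more, the count of a gene scaled to the library's total, in at least 2 of the 4 libraries. These 69 kept genes comprised 33 of 40 voltage-gated genes, 10 of 15 inward rectifier genes, 10 of 14 two-pore genes, 7 of 8 calcium-activated genes and 9 of 15 genes for auxiliary subunits. The class here called calcium-activated also held the sodium-activated channels Kcnt1 and Kcnt2 and the related Kcnu1. The rule used the level of a gene and not its difference between genotypes, but Kcnh8 met it only through its cKO libraries. The comparison of genotypes covered 68 of the 69, since the filter on low counts left out Kcnk5.

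Potassium channels let potassium ions leave or enter a cell down their electrochemical gradient, and so set its resting potential, the shape of its action potentials and its firing rate. Voltage-gated channels open on depolarisation, inward rectifiers pass current best near or below the resting potential, two-pore channels carry background leak current, and calcium-activated channels couple calcium entry to repolarisation. Auxiliary subunits do not form the pore but change the gating or transport of the subunits that do. In the cerebellum, granule neurons carry a standing background current through TASK channels and a fast transient current through Kv4 channels, and Purkinje cells and interneurons use Kv3 channels to fire at high rates.

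RNA of whole cerebellum was sequenced at postnatal day 14 (P14) from 2 WT mice, Kdm6b fl/fl, and 2 Kdm6b-cKO mice, Kdm6b fl/fl with 1 heterozygous Atoh1-Cre transgene. WT mice therefore carried the same loxP-flanked alleles, around the exons for the catalytic domain of Kdm6b, an enzyme that removes methyl groups from H3K27me3. Atoh1 is expressed in granule neuron precursors, so that Cre acts in that lineage, while the whole tissue also holds cells outside it. The mice were littermates, and each library came from 1 mouse per the study's methods. The p-values below set the genotype difference against a spread estimated from these few mice, with information shared across all tested genes.

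Libraries held 8811849 to 9892363 counts in genes, and Kdm6b stood at 154 and 154 CPM in WT mice, with 127 and 119 CPM in cKO, a fall of 0.33 on the log2 scale (SE 0.0758, edgeR adjusted p = 0.0162). The counts cover all exons of Kdm6b in the whole tissue. They therefore do not measure the loss of the flanked exons in the Atoh1 lineage. WT 1 differed from the other 3 libraries in sex-linked RNA, with Xist at 0.431 CPM against 1359 to 1599 CPM and 4 Y-linked genes at a sum of 233 CPM against at most 0.672 CPM. Library cKO 1 held more RNA of choroid plexus, with Ttr at 609 CPM against 0.108 to 13.9 CPM in the others. The markers checked for cerebellar cell types were above 0 in every library. The summed CPM of 5 mature granule neuron markers was 3552 and 3720.0 in WT against 2851 and 2534 in cKO, and all 5 passed the test as lower. The summed CPM of 5 granule neuron precursor markers was 83.7 and 102 in WT against 122 and 206 in cKO, and 3 of the 4 that could be tested were higher, while Atoh1 itself lay between 0.431 and 2.02 CPM. Among 5 markers each, 2 of Bergmann glia and astrocytes and 2 of the oligodendrocyte lineage were lower, 1 of Purkinje cells was higher, and none of interneurons, microglia or vessels passed. The Purkinje sum went the other way from its 1 passing marker, at 5161.5 and 5086 CPM in WT against 4834 and 4527 in cKO. The sum of Bergmann glia and astrocytes was 2954 and 2969 against 2638 and 2623, although Aldh1l1 of that set was above WT in both cKO libraries. The oligodendrocyte sum was 8527 and 8115 against 7312 and 7409.5. In a bulk tissue, fewer cells of a type cannot be told apart from less RNA per cell, and the part of these markers in the results below was not tested.

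Of the 68 potassium channel genes tested, 8 were lower in cKO, 1 was higher and 59 did not pass edgeR's quasi-likelihood test at an adjusted p of 0.05. Over all 16617 tested genes, 2.17% were lower and 1.87% were higher, against 11.8% and 1.47% of the channel genes. The 8 lower genes were Kcnk12, Kcnip4, Kcng4, Kcnj9, Kcnj12, Kcnip2, Kcnk3 and Kcnc1, and the higher gene was Kcnk9. The median log2 difference was -0.066 over the channel genes, with quartiles of -0.25 and 0.12, against 0.0036 over all tested genes. Both cKO libraries lay below both WT libraries for 23 channel genes (33.8%, against 23.2% of all tested genes) and above them for 13 (19.1%, against 23.2%). The distance of a library from the WT mean had a median over the channel genes of -0.048 in cKO 1 and -0.12 in cKO 2 on the log2 scale, so that cKO 2 lay further below WT than cKO 1 did. All 9 calls fell among the 44 channel genes with a mean of 10 CPM or more, of which 18.2% were lower, against 2.89% of the 11057 tested genes at that level. The other 24 had a median SE of 0.41, against 0.10 for the 44, so that a difference of a given size was less detectable among them.

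**Figure D1:**
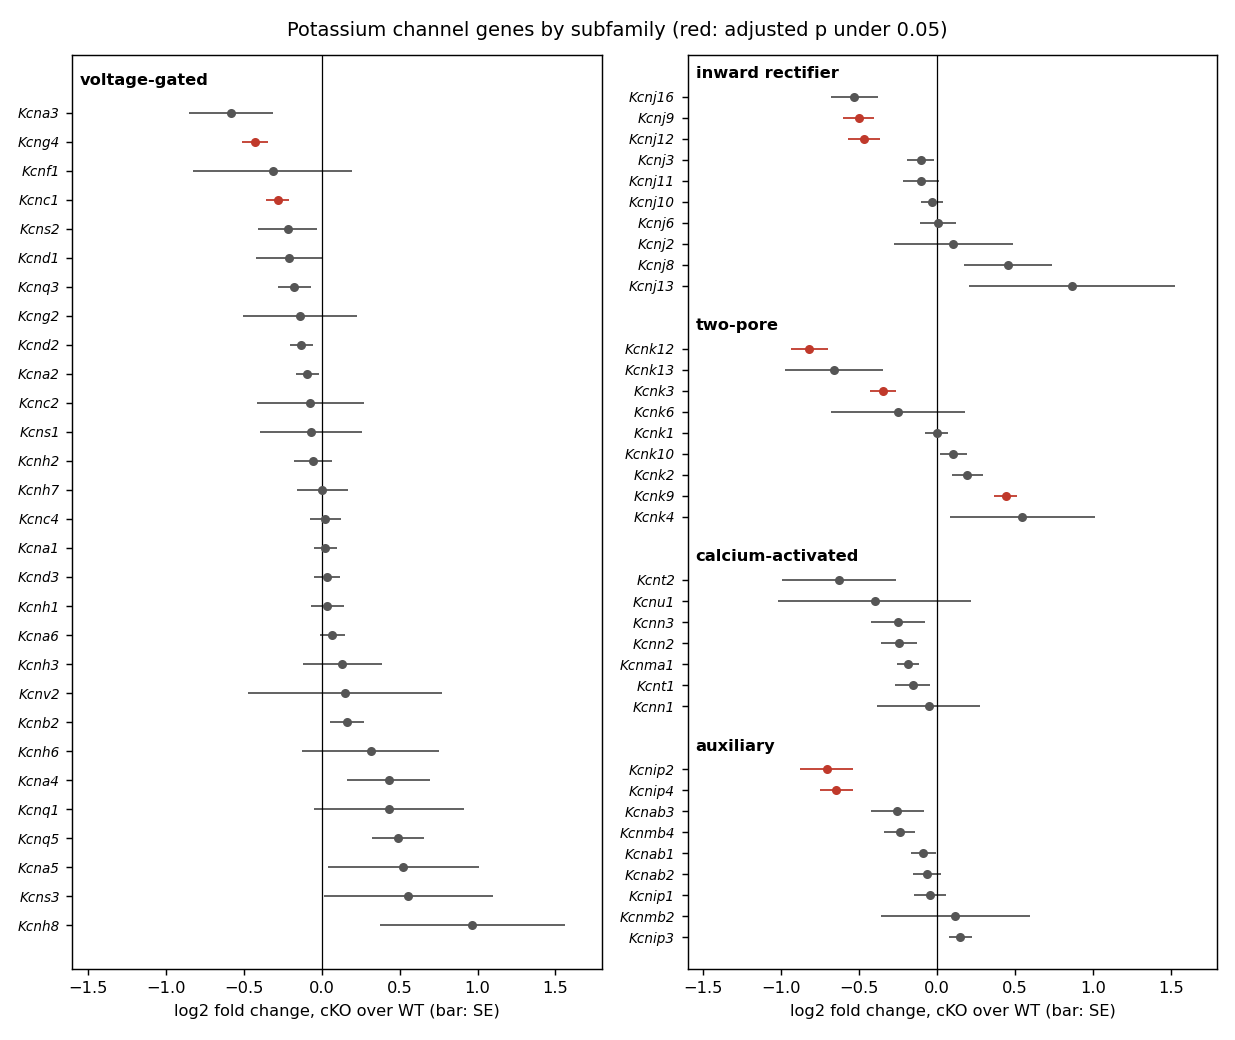
Log2 difference of cKO from WT (horizontal axis, bars of 1 SE) for the tested potassium channel genes named in the text, grouped by subfamily and ordered within it. Red points are the 9 genes with an edgeR adjusted p under 0.05, of which Kcnk9 alone lies to the right of 0, and wide bars belong to genes with few counts.

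**Figure D2:**
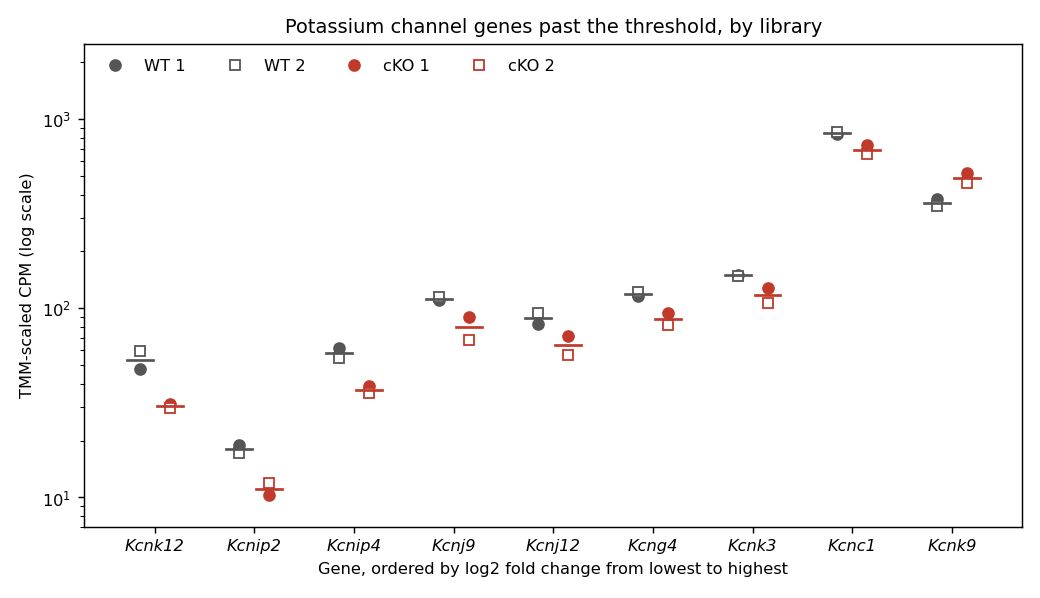
CPM scaled by TMM (vertical axis, log scale) of the 9 potassium channel genes past the threshold in each of the 2 WT (grey) and 2 cKO (red) libraries, with horizontal lines at the group means. For each gene both cKO points lie on 1 side of both WT points, below them for 8 genes and above them for Kcnk9.

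The groups did not overlap for any of the 9 genes, and the direction of each was the same in all 12 alternative analyses. The calls depended on both cKO libraries: without cKO 1 or without cKO 2, edgeR passed 0 of all 16617 genes. Of these, 2258 and 1691 had an unadjusted p under 0.05, 21 and 12 of them channel genes. Without WT 1, the library that differed in sex-linked RNA, 5 of the 8 lower genes and Kcnk9 passed, and the same counts passed without WT 2. Without a filter on low counts, where 28952 genes were tested, 2 of the lower genes and Kcnk9 passed.

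**Figure D3:**
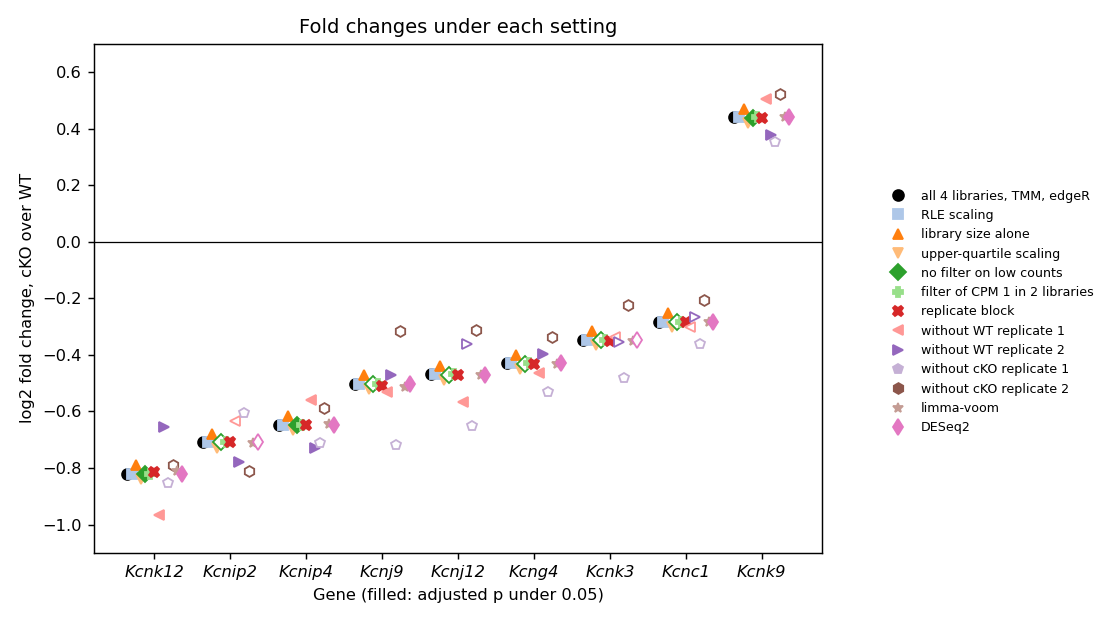
Log2 difference of cKO from WT (vertical axis) of the 9 called potassium channel genes in the analysis of all 4 libraries and in 12 alternatives (marker shapes), with filled markers for an adjusted p under 0.05. No gene crosses 0, and the open markers without cKO replicate 1 and without cKO replicate 2 show that no gene passed in those analyses.

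Levels of different genes were compared per kb of exon. Among the abundant genes were Kcnk1, a two-pore leak subunit, with a mean of 81.4 CPM per kb over the 4 libraries (SD 2.93), and Kcnc1, a Kv3 subunit of fast-firing neurons, at 81.1 (SD 9.75), and their order differed between libraries. Kcnip3, Kcnd2, Kcna1, Kcnk9, Kcnj10, Kcnk3 and Kcnt1 came next, from 42.6 down to 30.9 CPM per kb, and no gene among these 7 was above the next in all 4 libraries. The summed level of all kept channel genes was 1037 and 1055 CPM per kb in WT and 990.1 and 909 in cKO. Voltage-gated genes made up 48.7% to 49.7% of that sum in each library.

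Of the 9 two-pore genes tested, 2 were lower and 1 was higher. Kcnk12, which codes for the THIK-2 subunit of the halothane-inhibited leak channels, had WT levels of 47.9 and 59.4 CPM and cKO levels of 31.0 and 29.7 CPM. The cKO libraries lay close together and well below both WT libraries. The mean of 53.6 ± 8.13 CPM in WT (SD, n = 2) stood against 30.4 ± 0.962 CPM in cKO (SD, n = 2), a fall of 0.82 on the log2 scale (SE 0.118, edgeR adjusted p = 2.38e-04), and the fall was 0.66 without WT 2 and 0.97 without WT 1. This was the lowest log2 difference of the 68 tested channel genes. The only other kept THIK gene, Kcnk13, measured 4.53 and 5.40 CPM in WT compared with 3.02 and 3.25 CPM in cKO, and its log2 difference of -0.66 did not pass (SE 0.316, edgeR adjusted p = 0.301).

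Kcnk9 and Kcnk3, whose acid-sensitive TASK subunits can join in one channel, passed in opposite directions. Kcnk9, which codes for TASK-3, reached 377 and 346 CPM in WT mice and 519.6 and 462 CPM in cKO mice. Both cKO libraries were above both WT libraries. The means were 362 ± 22.2 and 491 ± 40.9 CPM (SD, n = 2 each), a rise of 0.44 on the log2 scale or 1.36-fold (SE 0.0753, edgeR adjusted p = 0.00129). Kcnk3, which codes for TASK-1, stood at 150.3 and 148 CPM in WT mice, with 128 and 107 CPM in cKO, with no overlap and with cKO 2 the lower. Its fall of 0.35 on the log2 scale (SE 0.0849, edgeR adjusted p = 0.0234) did not hold the threshold without WT 1 (adjusted p = 0.101) or without WT 2 (adjusted p = 0.0539), nor in DESeq2 (adjusted p = 0.0584), and its size was 0.22 without cKO 2 and 0.48 without cKO 1. Per kb of exon, Kcnk9 made up 44.8% and 43.0% of the summed level of both genes in WT and 56.8% and 58.3% in cKO. The level of Kcnk9 over that of Kcnk3, per kb, was 0.812 and 0.754 in WT and 1.31 and 1.40 in cKO. Per kb, the gene with the higher level was thus Kcnk3 in both WT libraries and Kcnk9 in both cKO libraries. By CPM, Kcnk9 was above Kcnk3 in every library. Which gene leads therefore depends on the annotated exon lengths, 12300 bases for Kcnk9 and 3976 for Kcnk3, and the transcript lengths in this tissue were not measured. The rise of the ratio in cKO does not depend on these lengths. The sum of Kcnk9 and Kcnk3 overlapped between genotypes, at 68.5 and 65.4 CPM per kb in WT and 74.4 and 64.4 in cKO. The opposite strand of Kcnk3 holds exons of Gm9899 over 5.76% of its exon bases, and the sources used here do not give the strand setting of the counting.

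The most abundant two-pore gene, Kcnk1, had WT levels of 187 and 177 CPM and cKO levels of 188 and 176 CPM, with overlapping groups and a log2 difference of -0.0029 (SE 0.0733). The TREK genes Kcnk2 and Kcnk10, for mechanically and lipid-gated leak channels, did not pass, with log2 differences of 0.19 and 0.11. The low-level genes Kcnk4 and Kcnk6 did not pass either, and Kcnk5 had no test. The median log2 difference over the 9 tested two-pore genes was -0.0029.

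Among inward rectifiers, 2 of 10 tested genes were lower and none was higher. Kcnj9, which codes for GIRK3, a subunit of the channels opened by G-protein-coupled receptors, measured 110.2 and 115 CPM in WT compared with 90.3 and 68.3 CPM in cKO. The cKO libraries did not overlap WT but differed from each other more than the WT libraries did. The fall from 113 ± 3.29 to 79.3 ± 15.5 CPM (SD, n = 2 each) was 0.50 on the log2 scale (SE 0.10, edgeR adjusted p = 0.00505), and its size was 0.32 without cKO 2 and 0.72 without cKO 1. Of its GIRK partners, Kcnj3, for GIRK1, reached 126 and 135 CPM in WT mice and 133 and 109.8 CPM in cKO mice, and Kcnj6, for GIRK2, stood at 39.9 and 48.5 CPM in WT mice, with 41.0 and 47.8 CPM in cKO. Neither passed, and both overlapped between genotypes. The share of Kcnj9 in the summed GIRK level per kb was 46.6% and 45.5% in WT against 40.6% and 36.8% in cKO.

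Kcnj12, a strong inward rectifier of the Kir2 family, had WT levels of 82.2 and 94.7 CPM and cKO levels of 71.3 and 56.3 CPM. All cKO values lay below the WT values. Its fall of 0.47 on the log2 scale (SE 0.102, edgeR adjusted p = 0.0104) lost the threshold without WT 2 (adjusted p = 0.0728), and its size was 0.31 without cKO 2 and 0.65 without cKO 1. The related Kcnj2 was at 2.32 to 4.59 CPM and did not pass. Kcnj10, the main potassium channel of cerebellar glia, had the highest mean level of the inward rectifiers per kb, although Kcnj12 was slightly above it in WT 2 (34.4 against 34.3 CPM per kb), and measured 184 and 186 CPM in WT compared with 183 and 179 CPM in cKO, a log2 difference of -0.033 (SE 0.0707) that did not pass. Its glial partner Kcnj16, singled out after the values were seen, reached 20.7 and 23.1 CPM in WT mice and 15.3 and 15.01 CPM in cKO mice. The groups did not overlap, and the log2 difference of -0.53 (SE 0.151) missed the threshold (edgeR adjusted p = 0.0522, and 0.0457 with upper-quartile scaling). The subunits Kcnj11 and Kcnj8 of ATP-sensitive channels had log2 differences of -0.10 and 0.46 and did not pass. Kcnj13, a rectifier of transporting epithelia, gave 1.29 CPM in WT 1, 0.864 CPM in WT 2, 3.53 CPM in cKO 1 and 0.336 CPM in cKO 2, highest in the library with the most choroid plexus RNA, where the sum of 4 choroid plexus markers was 653 CPM against 9.83 to 21.96 CPM. It did not pass, and 49.1% of its exon bases lie opposite exons of Gigyf2. The median over the 10 inward rectifiers was -0.067.

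Voltage-gated genes held 2 lower and no higher gene among 33, with a median log2 difference of 0.02. Kcng4, a silent subunit of the Kv6 family that forms channels only together with other subunits, stood at 116 and 121 CPM in WT mice, with 93.9 and 82.1 CPM in cKO. Both cKO libraries were below both WT libraries, at means of 119 ± 3.83 and 88.0 ± 8.37 CPM (SD, n = 2 each). The fall was 0.43 on the log2 scale (SE 0.0839, edgeR adjusted p = 0.00418), and it passed without either WT library. Kcnb2, for a subunit it can join, had a log2 difference of 0.16 (SE 0.110) and did not pass. The other kept silent subunits, Kcng2, Kcnf1, Kcns1, Kcns2, Kcns3 and Kcnv2, lay between 0.324 and 13.4 CPM in the libraries, and none passed.

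Kcnc1, a Kv3 subunit, had WT levels of 832 and 852 CPM and cKO levels of 729 and 654 CPM. The groups did not overlap, and the fall from 842 ± 14.3 to 692 ± 52.6 CPM (SD, n = 2 each) was 0.28 on the log2 scale (SE 0.0720, edgeR adjusted p = 0.0292). It lost the threshold without WT 1 (adjusted p = 0.0515) or without WT 2 (adjusted p = 0.0995). Kcnc4, another Kv3 gene, reached 52.1 and 58.7 CPM in WT mice and 58.2 and 54.3 CPM in cKO mice and overlapped between genotypes.

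Of the Kv1 genes, which limit excitability at axons and terminals, none of the 6 tested passed. Kcna1 and Kcna2 are given because the study lists both with a promoter gain in cKO. Kcna1 stood at 185 and 182 CPM in WT mice, with 195 and 178 CPM in cKO, and Kcna2 at 341 and 349.9 CPM in WT and 345 and 303 CPM in cKO, both with overlap. The log2 differences were 0.02 (SE 0.0733) for Kcna1 and -0.09 (SE 0.0732) for Kcna2. Kcna3, Kcna4, Kcna5 and Kcna6 had log2 differences from -0.58 to 0.52 and did not pass. Of the Kv4 genes, which carry the transient current of granule neurons, Kcnd2 had WT levels of 222 and 227 CPM and cKO levels of 216 and 193 CPM, a log2 difference of -0.13 (SE 0.0733) that did not pass. Kcnd3 and Kcnd1 did not pass either. Kcnq5, of the family that carries a slow current restraining repetitive firing, gave 12.5 and 13.6 CPM in WT mice and 16.8 and 19.9 CPM in cKO mice. It was singled out after its values were seen, because the groups did not overlap, and it did not pass (log2 difference 0.49, edgeR adjusted p = 0.112). Kcnq1 and Kcnq3 did not pass. The ether-a-go-go family genes Kcnh1, Kcnh2, Kcnh3, Kcnh6, Kcnh7 and Kcnh8 and the low-level Kcnc2 had log2 differences from -0.07 for Kcnc2 to 0.97 for Kcnh8, and none passed.

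Auxiliary subunits held 2 lower genes among 9, both of them Kv4 channel-interacting proteins (KChIPs), calcium-binding subunits that set the surface level and inactivation of Kv4 channels. Kcnip4 measured 61.8 and 54.9 CPM in WT compared with 38.8 and 35.6 CPM in cKO. The groups did not overlap, and the fall from 58.3 ± 4.92 to 37.2 ± 2.25 CPM (SD, n = 2 each) was 0.65 on the log2 scale or 1.57-fold (SE 0.106, edgeR adjusted p = 8.80e-04). Kcnip2 reached 18.98 and 17.2 CPM in WT mice and 10.3 and 11.9 CPM in cKO mice, again without overlap. Its fall of 0.71 on the log2 scale (SE 0.172, edgeR adjusted p = 0.0212) lost the threshold without WT 1 (adjusted p = 0.158) and in DESeq2 (adjusted p = 0.102).

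The most abundant KChIP, Kcnip3, stood at 138 and 148 CPM in WT mice, with 158 and 159 CPM in cKO, and its log2 difference of 0.15 (SE 0.0751) did not pass (edgeR adjusted p = 0.337). Kcnip1 overlapped between genotypes. The share of Kcnip3 in the summed KChIP level per kb was 55.7% and 58.7% in WT and 67.4% and 66.6% in cKO, while Kcnip4 made up 24.4% and 21.2% in WT and 16.1% and 14.6% in cKO and Kcnip2 made up 7.81% and 6.93% against 4.46% and 5.06%. The summed KChIP level was 69.9 and 71.2 CPM per kb in WT and 66.3 and 67.5 in cKO, and that of the Kv4 pore genes was 58.2 and 57.9 in WT and 57.4 and 51.2 in cKO. Among the other auxiliary genes, the Kv1 beta subunit Kcnab2 had WT levels of 126 and 121 CPM and cKO levels of 129.5 and 107 CPM with overlap. Kcnmb4, the neuronal beta subunit of BK channels, measured 54.8 and 61.9 CPM in WT compared with 51.0 and 47.7 CPM in cKO, and its log2 difference of -0.24 (SE 0.10) did not pass (edgeR adjusted p = 0.223). Kcnab1, Kcnab3 and Kcnmb2 had log2 differences of -0.09, -0.26 and 0.12 and did not pass. The median over the 9 auxiliary genes was -0.087.

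**Figure D4:**
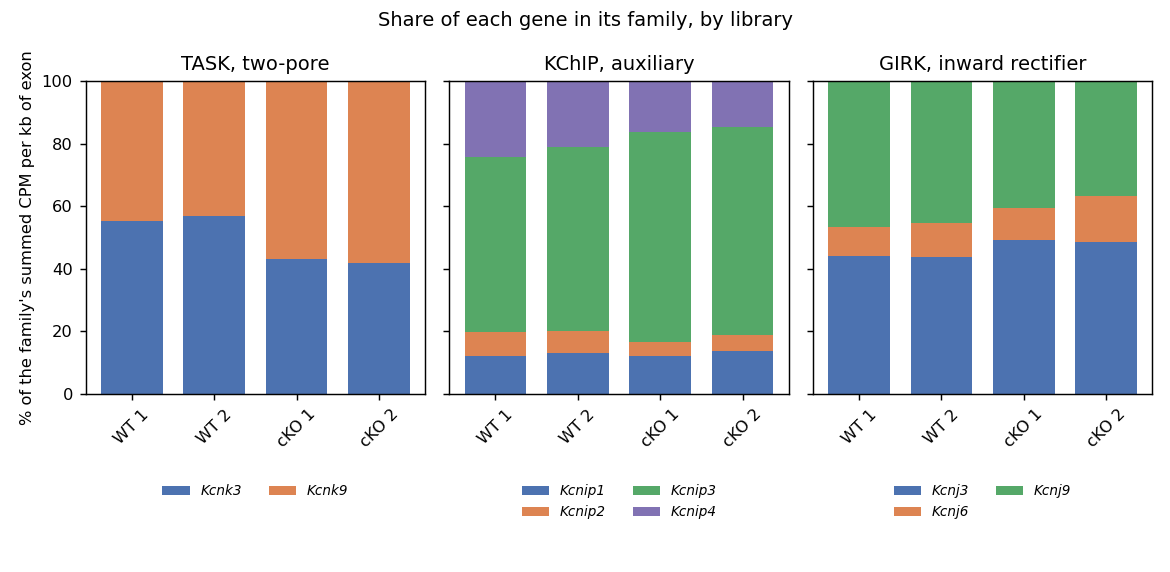
Share of each gene in the summed CPM per kb of exon of its family (vertical axis, %) in the 2 WT and 2 cKO libraries for the TASK genes Kcnk3 and Kcnk9 and the KChIP and GIRK families. The share of Kcnk9 went from 43.0% to 44.8% in WT to 56.8% to 58.3% in cKO, and that of Kcnip3 from 55.7% and 58.7% to 67.4% and 66.6%.

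None of the 7 calcium- and sodium-activated genes passed the edgeR test, and 2 had an unadjusted p under 0.05. Their log2 differences were all below 0, with a median of -0.25. Over all 16617 tested genes, 2710 had an unadjusted edgeR p under 0.05 and 8185 had a log2 difference below 0. Kcnma1, the pore subunit of the large-conductance BK channel and the gene of the class with the smallest p, reached 281 and 259 CPM in WT mice and 244 and 231 CPM in cKO mice. The groups did not overlap, and the log2 difference of -0.19 (SE 0.0699) did not pass (edgeR adjusted p = 0.163). Kcnt1, a sodium-activated channel and the most abundant of the class per kb, stood at 343 and 276 CPM in WT mice, with 324 and 231 CPM in cKO, so that libraries of 1 genotype differed more than the group means. Kcnn2, the SK subunit of Purkinje cells, had WT levels of 52.7 and 43.6 CPM and cKO levels of 37.7 and 43.7 CPM and overlapped. Kcnn1, Kcnn3, Kcnt2 and Kcnu1 had log2 differences from -0.63 to -0.05.

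The level rule left out 23 symbols, of which Kcna10, Kcnj1, Kcnk16 and Kcnk18 had 0 counts in all 4 libraries. Just inside the rule lay Kcnk5, at 0.431, 2.27, 0.806 and 1.01 CPM (in the order WT 1, WT 2, cKO 1, cKO 2), and Kcnh8, at 0.431, 0.972, 1.11 and 1.68 CPM. Kcnh8 was thus kept through the group where it was higher, and it is among the 13 channel genes with both cKO libraries above both WT libraries. Just outside lay Kcnj4, at 0.971, 0.756, 0.403 and 1.01 CPM, and Kcnh5, at 0.755, 1.51, 0.907 and 0.784 CPM. Kcne2, an auxiliary subunit known from choroid plexus, had 31 counts in cKO 1 and 1, 0 and 0 counts in WT 1, WT 2 and cKO 2. The other symbols left out were Kcna7, Kcne1, Kcne3, Kcne4, Kcng1, Kcng3, Kcnh4, Kcnj5, Kcnj14, Kcnj15, Kcnk7, Kcnk15, Kcnmb1, Kcnmb3, Kcnn4 and Kcnv1.

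The study lists promoters that lose H3K27me3, a repressive histone mark, as the cerebellum matures, and promoters that gain it in cKO, from chromatin libraries other than these. Of the tested channel genes, 21 were on the developmental loss lists, and 6 of them were lower in cKO (28.6%) and 1 was higher (4.76%). Among all 1078 tested genes of those lists, 10.9% were lower and 0.557% were higher. Of the 47 channel genes off the lists, 2 were lower (4.26%) and none was higher, so that 6 of the 8 lower genes (75%) were on them. Genes on and off the lists were not matched for level. All calls fell among channel genes with a mean of 10 CPM or more, and most of the 24 below that level were off the lists. The difference in share was not tested. The median log2 difference was -0.068 for channel genes on the lists and -0.064 for those off them, against -0.12 for all tested genes on the lists. Kcnip4, Kcnj9, Kcnj12 and Kcnk9 were on the list of fast loss and Kcnk12, Kcnk3 and Kcnc1 on the list of slow loss, and Kcng4 and Kcnip2 were on neither. The higher gene Kcnk9 was thus on the same list as 3 lower genes. A promoter gain in cKO was listed for 4 channel genes, of which Kcnip4 and Kcnj12 were lower and Kcna1 and Kcna2 did not pass. Of all 141 tested genes with such a gain, 21.99% were lower.

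**Figure D5:**
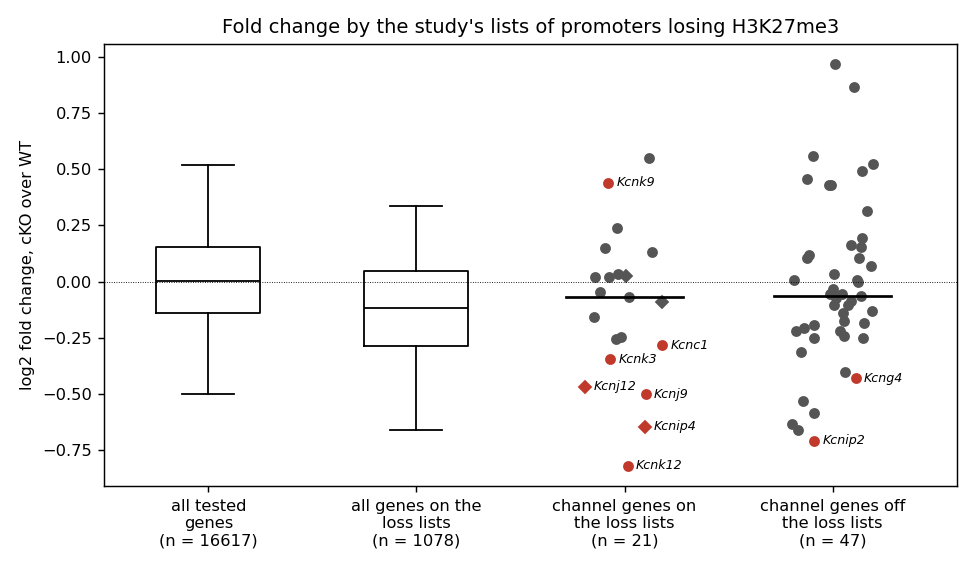
Log2 difference of cKO from WT (vertical axis) for all tested genes and all tested genes on the study's lists of promoters losing H3K27me3 (boxes: quartiles and median, whiskers: 5th and 95th percentiles), and for channel genes on and off those lists (points, lines at the medians). Red marks the 9 genes past the threshold and diamonds the 4 genes listed with a promoter gain in cKO, and 7 of the 9 red points are in the column of genes on the lists.

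The promoters of 4 of the lower genes on the loss lists, of 1 lower gene on no list and of 1 gene that gained the mark but did not pass are shown here, because the mark of these lists is a promoter mark and such marks often lie on CpG-rich sequence. Each run is the 250 bases before the RefSeq start in GRCm38.p6, 5′ to 3′ on the strand of the gene, with CpG in capitals. Kcnk12 (chr17:87797995-87798244, minus strand), Kcnc1 (chr7:46396218-46396467, plus strand), Kcnj9 (chr1:172329323-172329572, minus strand) and Kcnj12 (chr11:61065554-61065803, plus strand) are lower genes on the loss lists, Kcng4 (chr8:119635681-119635930, minus strand) is the lower gene on no list, and Kcna2 (chr3:107101317-107101566, plus strand) is the gene that did not pass.
Kcnk12: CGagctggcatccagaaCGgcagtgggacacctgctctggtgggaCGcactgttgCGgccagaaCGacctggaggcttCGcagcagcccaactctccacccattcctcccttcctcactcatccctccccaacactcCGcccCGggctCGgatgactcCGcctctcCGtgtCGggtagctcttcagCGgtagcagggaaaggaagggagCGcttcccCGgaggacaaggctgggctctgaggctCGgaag
Kcnc1: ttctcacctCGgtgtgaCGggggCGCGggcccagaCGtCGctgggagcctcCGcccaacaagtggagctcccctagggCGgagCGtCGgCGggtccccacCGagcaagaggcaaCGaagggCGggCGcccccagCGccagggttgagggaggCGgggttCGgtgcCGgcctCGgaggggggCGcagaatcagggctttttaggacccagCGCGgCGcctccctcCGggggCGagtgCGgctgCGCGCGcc
Kcnj9: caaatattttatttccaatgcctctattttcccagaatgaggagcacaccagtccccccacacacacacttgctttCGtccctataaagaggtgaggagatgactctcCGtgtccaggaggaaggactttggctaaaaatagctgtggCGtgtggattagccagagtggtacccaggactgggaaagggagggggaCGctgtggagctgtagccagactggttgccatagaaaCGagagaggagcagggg
Kcnj12: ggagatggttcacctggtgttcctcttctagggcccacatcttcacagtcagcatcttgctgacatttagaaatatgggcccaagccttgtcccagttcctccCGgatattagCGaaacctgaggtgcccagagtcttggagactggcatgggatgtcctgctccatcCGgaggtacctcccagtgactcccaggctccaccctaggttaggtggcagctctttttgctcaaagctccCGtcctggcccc
Kcng4: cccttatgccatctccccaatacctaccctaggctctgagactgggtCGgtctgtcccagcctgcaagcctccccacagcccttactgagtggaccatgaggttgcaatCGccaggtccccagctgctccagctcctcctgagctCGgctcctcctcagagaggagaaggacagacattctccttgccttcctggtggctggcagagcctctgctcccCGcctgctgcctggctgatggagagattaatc
Kcna2: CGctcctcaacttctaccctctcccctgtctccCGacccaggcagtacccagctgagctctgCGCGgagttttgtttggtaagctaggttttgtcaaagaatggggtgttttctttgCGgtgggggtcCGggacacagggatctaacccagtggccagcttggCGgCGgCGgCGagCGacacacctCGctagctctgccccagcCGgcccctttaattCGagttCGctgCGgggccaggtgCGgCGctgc

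The windows differed widely in CpG. Of all 32851 RefSeq windows, 5.94% held at least as many CpG as the 30 of Kcnc1. The same share was 21.7% for the 18 of Kcna2, 25.4% for the 16 of Kcnk12, 55.6% for the 5 of Kcnj9 and 62.2% for the 4 each of Kcnj12 and Kcng4. The 8 windows of the 7 lower genes with an entry had a median of 5.5 CpG, against 8 for the 71 windows of 48 kept channel genes and 6 for all windows. The lower genes thus had both CpG-rich and CpG-poor windows, on the loss lists as well as off them. The study took promoter peaks over a much wider span on both sides of a start. The CpG counts here cover only a part of that span. The letters CAGCAGG, the core of a motif of the ZIC factors of granule neurons, were found on either strand in 13 of the 71 channel gene windows (18.3%) and in 8.44% of all windows. Among lower genes they were in Kcng4 and in 1 of 2 windows of Kcnip4. Windows and not genes were counted, so that Kcnip1 counted more than once. The windows were not matched for CpG or level, and the difference in share was not tested. The windows of Kcnj12 and Kcna2 and both windows of Kcnip4 lie inside those genes as annotated by GENCODE. The other windows of lower genes held 30 (Kcnc1), 16 (Kcnk12), 15 (Kcnip2), 5 (Kcnj9) and 4 (Kcng4) CpG. The median of 5.5 thus rests in part on starts inside genes, and the windows of the other channel genes also include such starts.

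Genes that act with these channels were taken from lists of channel partners, HCN channels, and potassium pumps and cotransporters. Of 30 tested partners, 1 was higher (3.33%) and 2 were lower (6.67%), against 1.87% and 2.17% of all tested genes. Their median log2 difference was -0.028. Cntn2, an axonal adhesion protein that clusters Kv1 channels beside the node of Ranvier, measured 609 and 658 CPM in WT compared with 780.4 and 843 CPM in cKO. The groups did not overlap, and the rise was 0.36 on the log2 scale (SE 0.0720, edgeR adjusted p = 0.00564). Dpp10, which joins Kv4 and KChIP subunits in 1 complex, reached 183 and 178 CPM in WT mice and 151 and 144 CPM in cKO mice, a fall of 0.29 on the log2 scale (SE 0.0732, edgeR adjusted p = 0.0277), again without overlap. Dlg1, a scaffold protein that binds Kv1 and Kir2 channels, fell by 0.30 on the log2 scale (SE 0.0767, edgeR adjusted p = 0.0328), from 126 and 125 CPM to 103 and 102 CPM. The related Kv4 partner Dpp6 had a log2 difference of -0.19 and did not pass (edgeR adjusted p = 0.143). Lrrc55 and Abcc8 lay nearer the threshold without passing, with log2 differences of 0.53 and 0.26 (edgeR adjusted p = 0.0584 and 0.0773). Of the 30 partners, 11 had a log2 difference above 0 and 19 below.

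None of the 4 HCN genes, for the mixed-cation channels opened by hyperpolarisation, passed, and the smallest p was that of Hcn2, at 96.2 and 107 CPM in WT and 86.4 and 80.3 CPM in cKO (log2 difference -0.29, edgeR adjusted p = 0.0584). Of 16 tested genes on the list of pumps and cotransporters, 4 were lower and none was higher. That was 25% lower, against 2.17% of all tested genes, and the median log2 difference was -0.095. The lower genes included the sodium pump beta subunits Atp1b1 and Atp1b2, which fell by 0.33 and 0.28 on the log2 scale, and the neuronal potassium-chloride cotransporter Slc12a5, which fell by 0.30 (edgeR adjusted p = 0.00530, 0.0171 and 0.0157). Atp1b1 stood at 1101 and 1084 CPM in WT mice, with 877 and 859.8 CPM in cKO, and Slc12a5 at 713 and 718 CPM in WT and 602 and 559 CPM in cKO. Both were without overlap.

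Positions of the 9 called genes were taken from the GENCODE annotation of GRCm38. Kcnk12 spans chr17:87745801-87797994, Kcnk9 chr15:72501089-72546340, Kcnk3 chr5:30588170-30625271, Kcnj9 chr1:172320501-172329318 and Kcnj12 chr11:61022564-61071131. Kcng4 spans chr8:119623854-119635680, Kcnc1 chr7:46396497-46438704, Kcnip4 chr5:48389502-49524907 and Kcnip2 chr19:45791839-45816061. Of the 69 kept genes, 26 share exon bases with another annotated gene and 24 with one on the opposite strand. Among the called genes these are Kcnip4 (4.63% and 2.73% of its exon bases), Kcnj9 (4.01%) and Kcnk3. Their levels are uncertain for that reason, and the share of counts concerned is not known.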

How the data were processed

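Cerebellar RNA of 4 mice, enriched for poly(A), was sequenced in pairs by the authors. Per the methods and processing notes, reads were trimmed by the authors (Trimmomatic 0.38), aligned to GRCm38 (mm10) (STAR 2.7.2b) and counted with HTSeq over exons of GENCODE genes, and the authors deposited whole-number counts per gene, not normalised. The strand setting and the HTSeq version are not given in the sources used here. Entries that name no gene made up 59.5% to 61% of each file and were left out of library sizes and tests. Sample titles gave the groups and the replicate numbers. The chi-square between libraries of a group, divided by its degrees of freedom, was 3.56 in WT and 3.99 in cKO, above sampling noise.

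From the counts, filterByExpr of edgeR 4.0.16 (R 4.3.3) kept 16617 genes, TMM scaled the libraries, and glmQLFTest compared genotypes (two-sided, Benjamini-Hochberg over all tested genes, threshold 0.05; common dispersion 0.00537). CPM are TMM-scaled, and CPM per kb divides by the union of exons. Log2 differences are edgeR's fitted log2 fold changes. Every channel gene past the threshold and the one with the smallest p in each subfamily were described in full, and the 3 with the highest level per kb in each by library. Partners were named only where they passed or had the smallest p, apart from Dpp6, Lrrc55 and Abcc8. The members, subfamilies and gene lists were chosen with earlier results of these data known. Promoter lists came from the study's supplement and promoter sequences from RefSeq, where 48 of the 69 kept genes had an entry. Alternatives were other scalings, filters, tools (DESeq2 1.42.0, limma 3.58.1), a replicate block and each library left out. The scripts were tested on simulated data. A few genes are included in the counts and sums but are not reported here by name.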

Additional observations from a re-analysis of the deposited data

How the results depend on the processing

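All 9 called genes kept their direction in the 12 alternatives, and 24 of the 59 others took another sign in at least 1 of them, none in more than 3. The 8 lower genes became 2 without a filter on low counts, where Kcng4, Kcnj9, Kcnc1, Kcnip2, Kcnj12 and Kcnk3 had an adjusted p of 0.0510 to 0.132. That fit covered 28952 genes in place of 16617, with dispersions estimated anew. Over all genes, 106 were lower and 71 higher, against 361 and 310 in the main fit. Genes with an unadjusted edgeR p under 0.05 numbered 2789 against 2710. Why fewer genes passed was not tested. Leaving out 1 library at a time gave 0 to 5 lower genes, 0 to 1 higher gene and a median log2 difference of -0.148 (without cKO 1) to -0.051 (without cKO 2). The group with 1 library left was then assumed to vary like the other. With library size alone the median was -0.036, against 0.034 over all tested genes, and the counts were still 8 lower and 1 higher. DESeq2 gave 6 lower and 1 higher, with no adjusted p for 5477 genes, and limma-voom gave 8 and 1. The replicate block gave 10 lower and 1 higher, with Kcnj16 (adjusted p = 0.0236) among those added. Deviations of libraries with the same number correlated at 0.0429 and no label ties the number to a litter or day, so the numbers do not pair the mice. With 2 libraries a group, and a median SE of 0.41 for channel genes under 10 CPM, differences in low-level genes were not detectable at this depth unless large.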
